A study of Sus scrofa with 16 samples.

Results

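Proteasome subunits and the enzymes that conjugate ubiquitin were followed in the left ventricle of exercise-trained and sedentary young swine. Members were taken by name, as every gene whose symbol in the array's platform annotation starts with PSMA, PSMB, PSMC, PSMD, PSME or UBE2, and each gene was represented by its brightest probe set over all arrays. The rule found 61 genes, 37 of the proteasome and 24 of the UBE2 family, among 6765 named genes on the array. They are carried by 82 probe sets, and 15 of the 61 genes have more than 1.

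The exercised group held 8 pigs (4 females and 4 castrated males) that had undergone exercise training, with the regimen not stated in the labels. The sedentary group held 8 untrained pigs of the same sex split. All 16 animals were Yorkshire x Landrace crosses of 2 to 3 months with no genetic change named in the labels, and left ventricular RNA was taken 4 to 5 weeks after the protocol began. Each animal has 1 array, so the p-values below measure the spread between animals and their arrays together. A signal is the authors' deposited log2 value for a probe set, and a difference of 1 on this scale is a doubling of signal. Signals of different probe sets depend on their probes and were not set against each other.

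The arrays had been brought to a common distribution before deposit. The labelled tissue was checked against ventricular markers only coarsely, since percentiles of signal depend on the probes. All 10 measured of 12 listed, among them the contractile genes MYL2 and MYH7, were bright, at or above the 98.1th percentile. The array's 36 poly-A control probe sets, which read bacterial transcripts, separated the arrays at the widest gap in their mean. They averaged 6.37 ± 0.24 on 5 arrays with dim controls (SD) and 8.30 ± 0.39 on 11 arrays with bright ones. The dim set held 2 exercised pigs, both male, and 3 sedentary pigs, 1 of them female. Actin control probe sets, which read the pigs' own RNA, divided the arrays in the same way. Their 3' signal minus their 5' signal ran from 1.23 to 1.63 on the dim set and from 2.02 to 2.52 on the bright set. What sets the arrays apart was not tested. Some members followed this division, and their values are given within each set of arrays.

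The proteasome is the protease that degrades proteins marked with ubiquitin. Its 20S core is a barrel of alpha and beta subunits with the proteolytic sites inside, and the 19S particle at its ends recognises, deubiquitinates, unfolds and feeds in substrates. UBE2 enzymes accept ubiquitin from an activating enzyme and, with a ligase, pass it to the substrate. In heart muscle this system renews contractile proteins and removes damaged ones, and its immune form, with exchanged beta subunits, is induced by interferon.

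The first question was which of these genes differed in signal between exercised and sedentary ventricles. PSMD14 and UBE2V1 were higher in exercised pigs, each by 1.19-fold, and UBE2R2 was lower by 1.25-fold. The other 58 of 61 genes did not pass an adjusted p of 0.05 (limma, with Benjamini-Hochberg adjustment over 23935 probe sets). Across all probe sets 13.4% passed, with 6.48% higher and 6.88% lower in exercised pigs. All members lay above the 60th percentile of signal, and among the 4316 named genes above it 4.36% passed, 2.48% higher and 1.88% lower. The members' 3 of 61, or 4.92%, is close to that share. At an unadjusted p under 0.05 there were 9 members, 14.8%, against 15.2% of the named genes above the 60th percentile. When the model was fitted and adjusted only over probe sets above that percentile, none of the 3 genes passed, with limma adjusted p of 0.163 for PSMD14, 0.0889 for UBE2V1 and 0.124 for UBE2R2. No member had groups that did not overlap, as 0.324% of those named genes had. Because ventricle is a mixed tissue, fewer cells of a type and less RNA per cell cannot be told apart in any of these values.

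**Figure D1:**
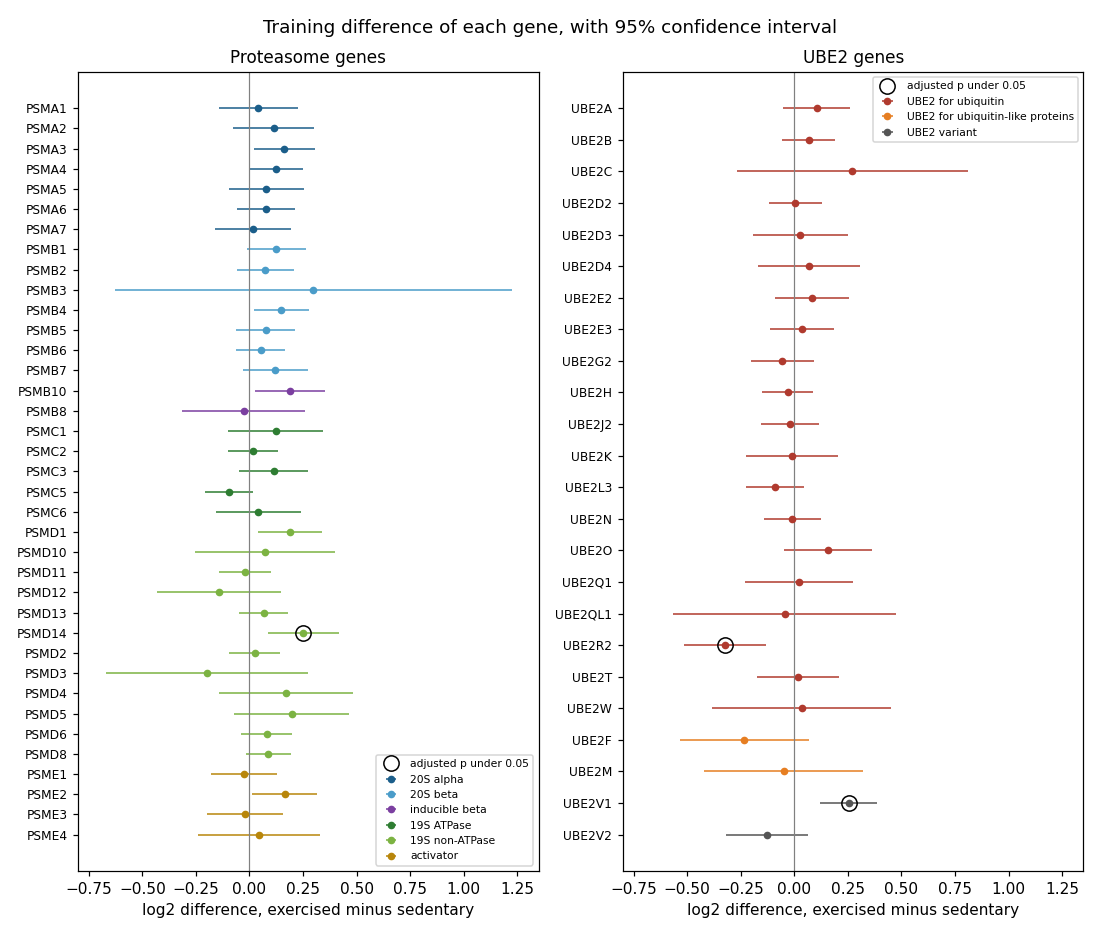
Difference in log2 signal between exercised and sedentary pigs (x axis, exercised minus sedentary, 8 against 8) for the brightest probe set of each of 37 proteasome and 24 UBE2 genes. Points are limma estimates, bars are 95% confidence intervals, colours are roles, and rings mark the 3 genes past an adjusted p of 0.05. All 14 subunits of the 20S core lie right of 0, and PSMB3 has by far the widest interval of them.

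The 14 constitutive genes of the 20S core had small positive differences, none past the test. Their differences ran from 0.02 for PSMA7 to 0.30 for PSMB3, with a median of 0.10, and all 14 of 14 were above 0. Of the named genes above the 60th percentile, 54.0% were above 0, with a median of 0.01. Above the 90th percentile these were 57.2% and 0.02. Each core subunit belongs to the same complex and the same arrays, so the 14 signs are not 14 independent observations. The interval of 13 of the 14 genes stayed within 0.5 on the log2 scale, or 1.41-fold, in either direction.

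Among the alpha subunits, which form the outer rings and the gate of the barrel, PSMA3 had the smallest p. It read 11.53 at the lowest, 11.64 at the median and 11.90 at the highest in exercised pigs, against 11.41, 11.53 and 11.63 in sedentary pigs. The groups overlapped, although every exercised pig exceeded the sedentary mean. The difference was 0.16 ± 0.07 (SE, n = 8 each, limma adjusted p = 0.130). PSMA4 differed by 0.13 ± 0.06 (SE, limma adjusted p = 0.183) and PSMA2 by 0.11 ± 0.09 (SE, limma adjusted p = 0.462).

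The beta subunits hold the proteolytic sites, and their 3 catalytic members did not pass either. PSMB5, which carries the chymotrypsin-like site, read 10.41 to 10.73 (median 10.54) in exercised pigs and 10.38 to 10.57 (median 10.49) in sedentary pigs. The exercised values spread more widely, and the lower part of their range lay inside the sedentary one. Its difference of 0.08 had a 95% interval from -0.06 to 0.21 (limma adjusted p = 0.513). PSMB6, with the caspase-like site, averaged 10.57 ± 0.08 in exercised and 10.52 ± 0.07 in sedentary pigs (SD, n = 8 each, limma adjusted p = 0.600). PSMB7, with the trypsin-like site, averaged 10.77 ± 0.14 in exercised and 10.65 ± 0.11 in sedentary pigs (SD, n = 8 each, limma adjusted p = 0.306).

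Of the beta subunits without a proteolytic site, PSMB4 differed by 0.15 ± 0.06 (SE, limma adjusted p = 0.115) and PSMB1 by 0.13 ± 0.06 (SE, limma adjusted p = 0.230). In both, 7 of 8 exercised pigs were above the sedentary mean. PSMB3 had the largest difference of the core, 0.30, but with a standard error of 0.44.

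**Figure D2:**
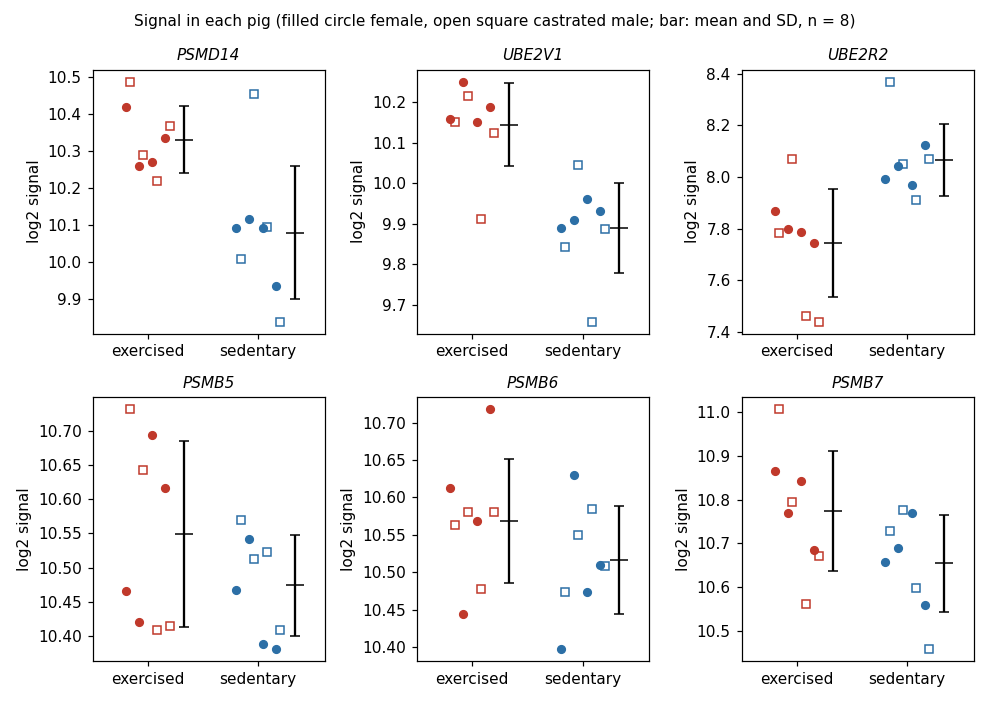
Log2 signal (y axis, a scale of its own in each panel) of each exercised pig (red, left) and sedentary pig (blue, right) for the 3 genes past the test, PSMD14, UBE2V1 and UBE2R2, and for the catalytic subunits PSMB5, PSMB6 and PSMB7. Filled circles are females, open squares castrated males, and bars give mean and SD of 8. A lone sedentary male stands among the exercised pigs in the PSMD14 panel, and the catalytic subunits overlap throughout.

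Genes of the 19S particle were taken by the PSMC and PSMD prefixes, which also bring in assembly chaperones such as PSMD10. Of these 17 genes 1 was higher in exercised pigs, none was lower and 16 did not pass. The median difference was 0.07, and 13 of the 17 were above 0. The gene that passed was PSMD14, the metalloprotease of the lid (Rpn11 in yeast) that cuts the ubiquitin chain from a substrate as it enters the core. PSMD14 read 10.22 at the lowest, 10.31 at the median and 10.49 at the highest in exercised pigs, against 9.84, 10.09 and 10.45 in sedentary pigs. All 8 exercised pigs were above 7 of the 8 sedentary pigs, and sedentary pig 5, a male at 10.45, lay among the exercised ones.

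The means of PSMD14 were 10.33 ± 0.09 in exercised and 10.08 ± 0.18 in sedentary pigs (SD, n = 8 each). The difference was 0.25 ± 0.08 (SE, 95% interval 0.09 to 0.42, limma adjusted p = 0.0443). The value was close to the threshold. Leaving out any 1 animal gave 0.21 to 0.31, with an adjusted p from 0.00565 to 0.0874, and the call held in 2 of 16 such fits, without exercised pig 7 and without sedentary pig 5. Between arrays with dim poly-A controls the group means differed by 0.34, and between arrays with bright ones by 0.19.

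PSMD1 (Rpn2 in yeast), a scaffold of the particle's base, was next with 10.43 to 10.69 (median 10.58) in exercised pigs and 10.13 to 10.60 (median 10.40) in sedentary pigs. The difference of 0.19 ± 0.07 did not pass (SE, limma adjusted p = 0.0915), and a second PSMD1 probe set gave 0.20 (limma adjusted p = 0.0925). PSMD8, a lid subunit, differed by 0.09 ± 0.05 (SE, limma adjusted p = 0.280).

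The ATPases of the base, which unfold the substrate, did not pass. Of the 5 measured, PSMC1 differed by 0.12 ± 0.10 and PSMC3 by 0.11 ± 0.08 (SE, limma adjusted p of 0.509 and 0.369). PSMC5 was the only one below 0, at -0.09 ± 0.05 (SE, limma adjusted p = 0.277), with 7 of 8 exercised pigs under the sedentary mean.

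The inducible subunits and the activators gave no call. PSMB10, the inducible counterpart of PSMB7, averaged 8.23 ± 0.16 in exercised and 8.04 ± 0.11 in sedentary pigs (SD, n = 8 each), a difference of 0.19 ± 0.08 (SE, limma adjusted p = 0.121). PSMB8, the counterpart of PSMB5, averaged 8.21 ± 0.24 in exercised and 8.24 ± 0.31 in sedentary pigs (SD, n = 8 each, limma adjusted p = 0.933). PSME1 and PSME2 form the activator that pairs with the immune form. PSME2 read 9.62 to 10.21 (median 9.96) in exercised pigs and 9.68 to 9.92 (median 9.77) in sedentary pigs, with a difference of 0.16 ± 0.07 (SE, limma adjusted p = 0.150). PSME1 differed by -0.03 ± 0.07 (SE, limma adjusted p = 0.870). The nuclear activators PSME3 and PSME4 differed by -0.02 ± 0.08 and 0.04 ± 0.13 (SE, limma adjusted p of 0.915 and 0.878).

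Lists beyond the members hold dimmer genes too, and over all 6765 named genes 10.02% passed. Among 10 measured partners of the immune proteasome in antigen processing, 1 was higher in exercised pigs, none was lower and 9 did not pass. The median difference was 0.24, and 9 of 10 were above 0, where 53.1% of all named genes were. The gene that passed was IRF7, a transcription factor of the interferon response and not itself part of antigen processing. Its difference was 0.40 ± 0.11 (SE, limma adjusted p = 0.0284), with all 8 exercised pigs above the sedentary mean. Exercised pig 2 stood above the other exercised pigs in IRF7 (7.22, next 6.79), ISG15 (11.01, next 9.66) and USP18 (9.27, next 7.57). It was also the highest exercised pig in TAP1 (9.07, next 8.68), STAT2 (8.11, next 7.83), TAPBP (8.60, next 8.54) and PDIA3 (10.78, next 10.69). It was not the highest in CALR, B2M or IRF1. Among the members it was the highest exercised pig in PSME2 (10.21, next 10.10) and PSMB8 (8.60, next 8.36), but not in PSMB10 or PSME1. The part of this pig in the values of the list and of these members was not tested. Markers of lymphocytes and of myeloid cells were read as well, and no call of their presence was made. They were mostly dim, with a median percentile of signal of 45.5 for the lymphocyte list and 39.1 for the myeloid list. Of 9 measured lymphocyte markers, CD79B, CD3G and GNLY were higher and IL7R was lower in exercised pigs. The summed level of the list, as the mean log2 signal of its genes, ran from 5.74 to 6.27 in exercised and from 5.24 to 6.00 in sedentary pigs. Of 6 measured myeloid markers, S100A8 and ITGAM were higher, and the mean of that list ran from 6.13 to 6.52 in exercised and from 6.03 to 7.12 in sedentary pigs. The part of these cells in the values of PSMB10 and PSME2 was not tested.

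The 24 UBE2 genes did not share a direction. One was higher, 1 was lower and 22 did not pass. Their median difference was 0.01, and 13 of 24 were above 0.

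UBE2V1 was the member with the smallest p. It resembles a conjugating enzyme but lacks the active cysteine, and with UBE2N it builds K63-linked ubiquitin chains, which serve in signalling more than in degradation. UBE2V1 read 9.91 at the lowest, 10.15 at the median and 10.25 at the highest in exercised pigs, against 9.66, 9.90 and 10.04 in sedentary pigs. The groups overlapped through exercised pig 7, a male at 9.91, while the other 7 exercised pigs were above every sedentary pig.

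The means of UBE2V1 were 10.14 ± 0.10 in exercised and 9.89 ± 0.11 in sedentary pigs (SD, n = 8 each). The difference was 0.25 ± 0.06 (SE, 95% interval 0.12 to 0.39, limma adjusted p = 0.0135). It passed in 16 of 16 fits that left out 1 animal, with values from 0.22 to 0.29. Between arrays with dim poly-A controls the groups differed by 0.19 and between arrays with bright ones by 0.26.

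The other 2 UBE2V1 probe sets, which were dimmer, gave 0.16 (limma adjusted p = 0.551) and -0.05 (limma adjusted p = 0.791), so the call rests on the brightest. Its partner UBE2N, described because of this pairing, averaged 10.34 ± 0.12 in exercised and 10.35 ± 0.08 in sedentary pigs (SD, n = 8 each, limma adjusted p = 0.944). UBE2V2, the close relative that pairs with UBE2N too, averaged 9.20 ± 0.14 in exercised and 9.33 ± 0.20 in sedentary pigs (SD, n = 8 each). Its difference of -0.13 ± 0.09 did not pass (SE, limma adjusted p = 0.406).

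UBE2R2, a conjugating enzyme of the CDC34 type that extends chains with cullin ligases, was the only member lower in exercised pigs. It read 7.44 at the lowest, 7.79 at the median and 8.07 at the highest in exercised pigs, against 7.91, 8.05 and 8.37 in sedentary pigs. Of the exercised pigs, 7 were below every sedentary pig, and exercised pig 5 lay inside the sedentary range.

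The means of UBE2R2 were 7.74 ± 0.21 in exercised and 8.07 ± 0.14 in sedentary pigs (SD, n = 8 each). The difference was -0.32 ± 0.09 (SE, 95% interval -0.51 to -0.13, limma adjusted p = 0.0277). It passed in 13 of 16 fits that left out 1 animal and was lost without exercised pig 7, exercised pig 8 or sedentary pig 3, with values from -0.39 to -0.28. Between arrays with dim poly-A controls the groups differed by -0.58, and between arrays with bright ones by -0.24. Both exercised pigs with dim controls were the lowest of all 16, at 7.46 and 7.44.

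The conjugating enzymes best known from muscle wasting and from general protein turnover did not pass. UBE2B, a RAD6 homologue abundant in striated muscle, averaged 11.21 ± 0.10 in exercised and 11.14 ± 0.07 in sedentary pigs (SD, n = 8 each). Its difference was 0.07 ± 0.06 (SE, limma adjusted p = 0.508), and its close relative UBE2A gave 0.10 ± 0.07 (SE, limma adjusted p = 0.411). UBE2D2 and UBE2D3, which work with many ligases, differed by 0.00502 and 0.03 (limma adjusted p of 0.970 and 0.902). The brightest UBE2D3 probe set is of a type whose probes may also match related transcripts, so its value is uncertain.

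UBE2O, a large enzyme that joins conjugating and ligase activities, differed by 0.16 ± 0.10 (SE, limma adjusted p = 0.332), while its dimmer probe set gave -0.11. UBE2F and UBE2M, which conjugate NEDD8 in place of ubiquitin and so switch on cullin ligases, differed by -0.23 ± 0.14 and -0.05 ± 0.17 (SE, limma adjusted p of 0.317 and 0.897). UBE2C, the partner of the anaphase-promoting complex in mitosis, averaged 7.07 ± 0.45 in exercised and 6.80 ± 0.79 in sedentary pigs (SD, n = 8 each, limma adjusted p = 0.553). Its difference turned with the arrays, being 1.03 between arrays with dim poly-A controls and -0.22 between arrays with bright ones.

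Where a gene had more than 1 probe set, the choice of probe set mattered. Of 15 such genes, 7 had the same sign in all their probe sets. Of the 82 member probe sets 4 passed, and the fourth belonged to UBE2T, a conjugating enzyme of the Fanconi DNA repair pathway, described here after its values were seen. Its dimmer probe set averaged 6.75 ± 0.23 in exercised and 6.38 ± 0.10 in sedentary pigs (SD, n = 8 each), a difference of 0.37 (limma adjusted p = 0.0129). On that probe set every exercised pig was above every sedentary pig, with 6.50 the lowest in exercised and 6.49 the highest in sedentary pigs. Of all 23935 probe sets tested, 747 had groups that did not overlap, and 13.4% passed. Its brightest probe set gave 0.02 (limma adjusted p = 0.935).

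**Figure D3:**
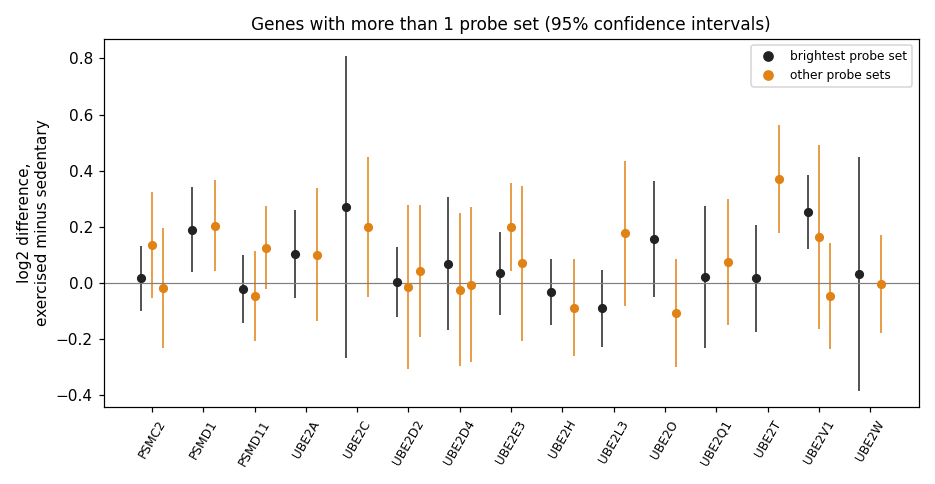
Difference in log2 signal between exercised and sedentary pigs (y axis, exercised minus sedentary) for every probe set of the 15 genes with more than 1, with 95% confidence intervals. Black is the brightest probe set and orange the others. PSMD1 gives 0.19 and 0.20, whereas UBE2V1 and UBE2T each have a probe set near 0 beside the one that passed.

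Array by array, the deviations of the core genes were small. The median deviation of the 14 core genes from their own means over all arrays was -0.11 at the lowest and 0.21 at the highest in exercised pigs, with a mean of 0.06 ± 0.10 (SD, n = 8). In sedentary pigs it was -0.16 at the lowest and 0.08 at the highest, with a mean of -0.06 ± 0.08 (SD, n = 8). The groups overlapped, with 7 of 8 exercised pigs above the sedentary mean. Counted over the 37 proteasome genes, exercised pig 3 had 35 above their means, and sedentary pig 8 had 7. For the 24 UBE2 genes the median deviation averaged 0.01 ± 0.04 in exercised and -0.00471 ± 0.03 in sedentary pigs (SD, n = 8 each).

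The same deviations followed the poly-A controls. On the 5 arrays with dim controls the core averaged -0.10, against 0.05 on the 11 arrays with bright controls. Within the dim set the exercised arrays exceeded the sedentary ones by 0.07 and within the bright set by 0.11. By plain group means, which take no account of the uneven sexes, 10 of 14 core genes had a positive difference in the dim set and 14 of 14 in the bright set. With sex in the fit, 13 of 14 were positive in the bright set, and PSMB3 was at -0.01. With the set of arrays as a block in the fit, 14 of 14 were positive, from 0.000181 for PSMA1 to 0.14 for PSMA3. In that fit 55.7% of the named genes above the 60th percentile were positive. The part of array handling in the core's shift was not tested.

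**Figure D4:**
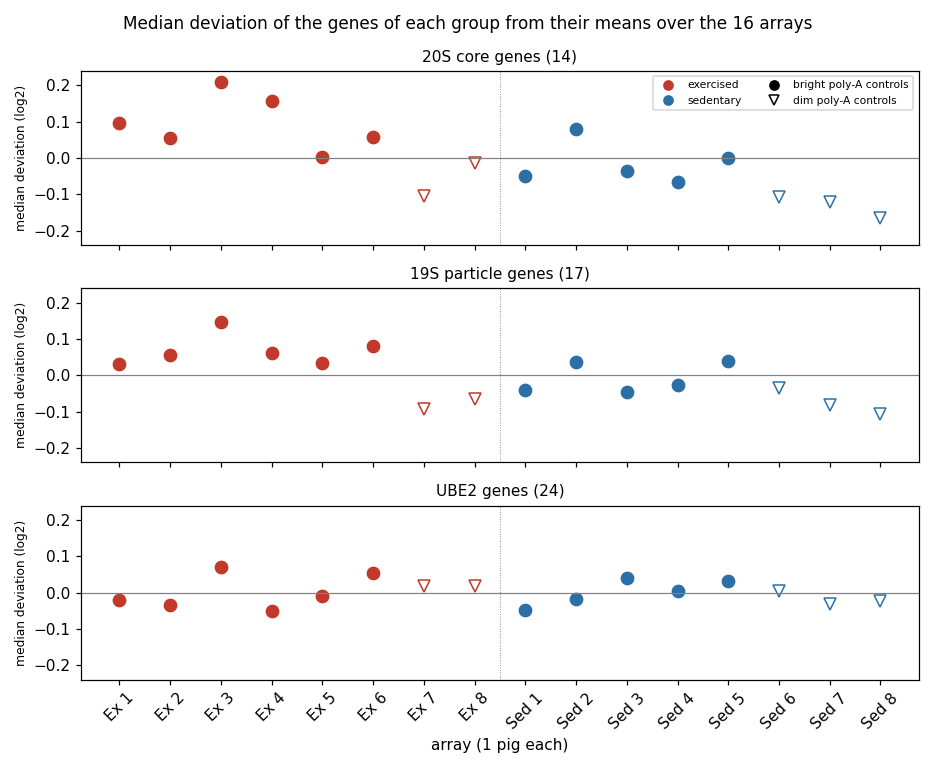
Median deviation of the 20S core genes (top), the 19S particle genes (middle) and the UBE2 genes (bottom) from their means over all 16 arrays (y axis, log2), for each exercised pig (red, left) and sedentary pig (blue, right). Filled circles are arrays with bright poly-A controls and open triangles arrays with dim ones. In the top panel the dim arrays average -0.10 and the bright ones 0.05, and in the middle panel -0.08 and 0.03, with sedentary pig 6 among the bright arrays there. In the bottom panel the triangles do not stand apart.

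Single members differed far more between the 2 sets of arrays than between the training groups. They are described here after their values were seen. PSMB3 averaged 6.30 on arrays with dim controls and 8.27 on arrays with bright ones, a difference of -1.97 that was the lowest of the 4316 named genes above the 60th percentile. UBE2C was lower on dim arrays by -0.89, UBE2W by -0.78, PSMD12 by -0.56 and PSMD10, an assembly chaperone of the base, by -0.53. PSMD3 was higher on dim arrays by 0.93, UBE2QL1 by 0.87, UBE2M by 0.76 and UBE2F by 0.51. Of the core genes 11 of 14 were lower on dim arrays, with a median of -0.15, where 2188 of the 4316 named genes were lower, with a median of -0.00447. For PSMB3 the groups differed by 0.03 within the dim set and by 0.06 within the bright set as plain means, and by -0.01 within the bright set with sex in the fit.

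With the set of arrays as a block in the fit, 6 of 61 members passed, against 8.76% of the named genes above the 60th percentile. PSMD14, UBE2V1 and UBE2R2 were among them. PSMD1 (0.21, limma adjusted p = 0.0453) joined the higher genes. PSMD12, a lid subunit (-0.22, limma adjusted p = 0.0249), and UBE2V2 (-0.17, limma adjusted p = 0.0478) joined the lower ones, so that UBE2V1 and UBE2V2 then passed in opposite directions. On the 11 arrays with bright controls alone only UBE2V1 passed, at 0.25 (limma adjusted p = 0.0321). PSMD14 was then at 0.19 (limma adjusted p = 0.201) and UBE2R2 at -0.24 (limma adjusted p = 0.0864).

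The second question was whether the response to training differed between the sexes. No member passed in females alone (limma, 4 at an unadjusted p under 0.05), where 3.72% of all probe sets passed, nor in castrated males alone (limma, 4 at an unadjusted p under 0.05), where 3.77% did. Among the 4316 named genes above the 60th percentile, 31 passed in females and 22 in males. At an unadjusted p under 0.05 (limma) there were 447 of these genes in females and 283 in males. The test of the difference between the sexes passed for no member (limma, 1 at an unadjusted p under 0.05) and for 0% of all probe sets. In that test 86 of the same 4316 genes were at an unadjusted p under 0.05 (limma).

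UBE2V1 had nearly the same difference in both sexes. It averaged 10.19 ± 0.05 in exercised and 9.92 ± 0.03 in sedentary females (SD, n = 4 each), and 10.10 ± 0.13 in exercised and 9.86 ± 0.16 in sedentary males (SD, n = 4 each). The differences were 0.27 in females (limma adjusted p = 0.111) and 0.24 in males (limma adjusted p = 0.148). PSMD14 gave 0.26 in females and 0.24 in males (limma adjusted p of 0.214 and 0.272). UBE2R2 gave -0.23 in females and -0.41 in males (limma adjusted p of 0.363 and 0.0898), and the difference between them, 0.18 ± 0.18 (SE), did not pass.

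PSME2 had the second smallest p in females, after UBE2V1. It averaged 10.05 ± 0.16 in exercised and 9.74 ± 0.04 in sedentary females (SD, n = 4 each), a difference of 0.30 (limma adjusted p = 0.115). In males it averaged 9.85 ± 0.18 in exercised and 9.82 ± 0.10 in sedentary pigs (SD, n = 4 each), a difference of 0.03. The difference between the sexes, 0.27 ± 0.14 (SE), did not pass. UBE2E2 had the smallest p for a difference in response between the sexes, with -0.09 in females and 0.26 in males, a difference of -0.35 ± 0.16 (SE, limma unadjusted p = 0.0439) that did not pass adjustment either.

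**Figure D5:**
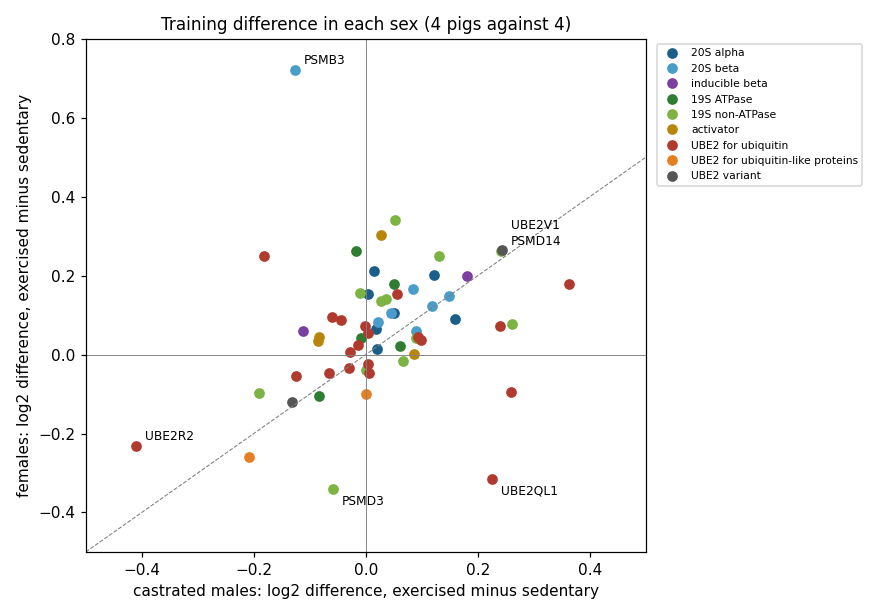
Training difference in log2 signal of each of the 61 genes in females (y axis) against castrated males (x axis), exercised minus sedentary, 4 pigs against 4 in each sex, coloured by role. The dashed line marks equal differences. UBE2V1 and PSMD14 lie on it at upper right, UBE2R2 lies at lower left, and PSMB3, at 0.72 in females and -0.13 in males, lies farthest from it.

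Females were also set against castrated males over both training groups. No member passed (limma, 6 at an unadjusted p under 0.05), where 0.0919% of all probe sets did. Of the 4316 named genes above the 60th percentile, 488 were at an unadjusted p under 0.05 (limma) and 2 passed. UBE2QL1, included by its prefix, averaged 6.91 in females and 7.73 in males, a difference of -0.82 ± 0.25 (SE, limma adjusted p = 0.537). UBE2D4 averaged 7.65 in females and 7.95 in males, a difference of -0.30 ± 0.11 (SE, limma adjusted p = 0.537). Of the 5 arrays with dim poly-A controls 1 was from a female, and UBE2QL1 was higher on those arrays as given above.

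The rest of the ubiquitin system gave scattered calls, to be read beside the 10.02% of all named genes that passed. Ubiquitin genes had 0 calls of 2 measured. Of 5 measured E1 activating enzymes UBA2, the catalytic subunit of the SUMO E1, was higher in exercised pigs by 0.22 ± 0.07 (SE, limma adjusted p = 0.0397), and 4 did not pass. Of 7 measured assembly factors and shuttles of the proteasome PAAF1, which binds the base ATPases, was higher by 0.29 ± 0.07 (SE, limma adjusted p = 0.0158), and 6 did not pass. Of 11 measured ligases of muscle and heart CUL2, a cullin scaffold, was higher by 0.43 ± 0.12 (SE, limma adjusted p = 0.0221), and 10 did not pass. Of 17 measured deubiquitinases and 3 regulators of proteasome genes none passed (limma).

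Of 15 measured autophagy genes, the other route of protein degradation, ATG3 was higher by 0.30 ± 0.09 (SE, limma adjusted p = 0.0472), and 14 did not pass. Of 15 measured cell cycle partners of UBE2C and UBE2T, the replication helicase subunits MCM3 (0.57) and MCM5 (0.42) were higher and MCM2 (-0.35) was lower in exercised pigs (limma adjusted p of 0.000179, 0.00585 and 0.00879). All 3 were dim, at or below the 45.8th percentile of signal. Of the 15 cell cycle genes 13 were above 0, with a median difference of 0.21, where 53.1% of all named genes were above 0.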

How the data were processed

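Left ventricular RNA of 16 pigs was labelled as biotinylated cRNA and read on Affymetrix porcine arrays with a single colour, per the labels' protocols. The authors deposited log2 signals per probe set. The scale was read from the values (2.87 to 14.86, with a common distribution on all arrays), and the summarisation and normalization are not given in the sources used here. No further normalization was applied. The tests covered 23935 of 24123 probe sets, after removal of 188 controls. Gene symbols are those of the array's platform annotation and may be outdated: 10069 of those tested had 1 symbol, 198 several and 13668 none, and 60 of 61 members matched RefSeq (Sscrofa11.1) by Entrez identifier, with 0 symbols changed. RefSeq holds 77 protein-coding genes with these prefixes, of which 16 were not named here, among them PSMB9, UBE2G1 and UBE2L6.

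A mean for each of 4 combinations of training and sex was fitted in R 4.3.3 by limma 3.58.1, using lmFit and then eBayes (12 residual and 3.50 prior degrees of freedom). Contrasts were training over both sexes, training in each sex, the difference between these, and sex. All tests are two-sided, and p-values were adjusted by the Benjamini-Hochberg method across the 23935 probe sets, with 0.05 as threshold. Every adjusted p is from limma. The number of arrays limits the precision. Figures were drawn with matplotlib 3.10.9.

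Named members were those past the threshold, up to 3 with the smallest p in each role, a set of well-known genes, and, in the sex comparisons, the 2 with the smallest p. Of every other list, genes past the threshold were named. The members and lists were chosen with earlier results of these data known. Alternatives covered normalization, filters on dim probe sets, the fit, blocks, the probe set of a gene, the threshold and leaving out each animal.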

Additional observations from a re-analysis of the deposited data

Results flagged for a closer look

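Of 68 groups of 8 arrays examined (34 named members in exercised and in sedentary pigs), 6 held an array far from the other 7 by Dixon's criterion at 95%, and chance gives about 1 in 20. In exercised pigs UBE2V1 was low at 9.91 in pig 7 (nearest 10.13), UBE2D3 was low at 8.63 in pig 8 (nearest 9.09), and UBE2C was low at 6.09 in pig 5 (nearest 6.81). In sedentary pigs PSMD14 was high at 10.45 in pig 5 (nearest 10.12), UBE2R2 was high at 8.37 in pig 3 (nearest 8.13), and UBE2E2 was low at 7.56 in pig 3 (nearest 7.85). All 3 members that passed the training test are among them. For UBE2V1 and PSMD14 the outlying animal lies toward the other group, and for UBE2R2 it lies away from it. Exercised pigs 7 and 8 are the 2 exercised pigs whose arrays had dim poly-A controls. UBE2V1 was lower on dim arrays by -0.17 and UBE2D3 by -0.35. The other flagged arrays had bright controls. The part of this division in the flags was not tested.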

How the results depend on the processing

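Signals are relative within arrays that share a distribution, so a common shift of all genes could not be seen. The tests rest on 16 arrays, and the training groups are unevenly spread over the arrays with dim and bright poly-A controls. The 2 higher members and 1 lower member passed with no sex term and with a log2 limit of 0.25. They also passed under quantile normalization and median centring, which can change little in arrays that share a median and are no test of stability. Higher members numbered 1 when tested above the 40th percentile of signal, with trended and robust eBayes, with a replicate block, on arrays with bright poly-A controls alone and with a gene's probe sets averaged. They numbered 0 above the 60th percentile, where the model was fitted and adjusted over fewer and brighter probe sets (9574, with 8 members at an unadjusted p under 0.05 by limma). Lower members numbered 0 above the 40th percentile, 0 above the 60th and 0 on arrays with bright controls alone, and 3 with the poly-A set as a block. UBE2V1 had 0.12 as the mean of its probe sets and did not pass. Leaving out 1 animal gave 1 to 2 higher members (PSMB10 in place of PSMD14 without exercised pig 5, PSMD1 without sedentary pig 8) and 0 to 1 lower, and a median of all members from 0.04 to 0.07. Calls in females ranged from 0 to 1 and in males from 0 to 1 on leaving out 1 animal, and UBE2R2 was the 1 that passed in males with the poly-A set as a block. The gene added in females was PSMD1 (without sedentary pig 8) and in males UBE2R2 (without exercised pig 5). Whether replicate numbers pair the animals was not settled. Of 8 pairs with the same number 5 correlated above 0.1 (from -0.03 to 0.39). Only 1 exercised array and 2 sedentary arrays correlated best with the array of their own number. With the replicate block PSMD14 stayed at 0.25 but did not pass (limma adjusted p = 0.0668). The 20S core had 12 positive genes of 14 with array weights and 13 on arrays with bright controls alone and in 6 of the 16 fits that left out 1 animal. For PSMD14, UBE2V1 and UBE2R2 no alternative turned the direction, and the cause of lost calls was otherwise not tested.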

Other observations

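One of 4 measured atrial markers passed in the training comparison. NPPA, the atrial natriuretic peptide gene, was lower in exercised pigs at 8.23 ± 0.54, against 9.004 ± 0.49 in sedentary pigs (SD, n = 8 each, limma adjusted p = 0.0457). The other 3 did not pass. None of the 4 was above 0, and their median difference was -0.34. The mean log2 signal of the list ran from 7.11 to 7.87 in exercised and from 7.49 to 8.22 in sedentary pigs. Markers of endothelium (8 measured), fibroblasts (6), smooth muscle and pericytes (6) and erythroid cells (3) had 0 calls by limma.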
